A study of Homo sapiens with 6 samples.

Results

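The COPI coat, the KDEL receptors and the GTPase ARF4 are described here by their transcripts in U2OS cells treated with an inhibitor of VCP. Members were taken by gene symbol from the deposited table. No filter on their values was used, but earlier results of these data were known when they were chosen. They are the coat subunits COPA, COPB1, COPB2, COPE, COPG1 and COPZ1, the receptors KDELR1, KDELR2 and KDELR3, and ARF4. All 10 were found among 57820 annotated genes, each on 1 row, and all 10 reached the mean normalised count of 10 that 14889 genes reached and that was asked for before testing. U2OS is an established human osteosarcoma line. Cells received 5 µM NMS-873 for 4 h (3 libraries) or 0.05% DMSO, the solvent, for 4 h (3 libraries), and no group carried a genetic change according to the labels. NMS-873 blocks VCP (p97) allosterically; VCP is an ATPase that extracts ubiquitylated proteins from membranes and complexes, among them misfolded proteins of the endoplasmic reticulum (ER). Polyadenylated RNA was sequenced, and the comparison bears on the transcript response to a block of VCP. Separate cultures are not named in the labels, so a p-value here reflects spread among libraries that could be technical only. In such bulk RNA, fewer cells and less RNA per cell cannot be told apart.

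COPI coats vesicles that carry proteins back from the Golgi to the ER. A GTPase of the ARF family recruits the coat to the membrane, where it gathers cargo and shapes the vesicle. Soluble ER proteins that escape to the Golgi end in the amino acids KDEL or a close variant. KDEL receptors bind that ending in the acidic Golgi, enter COPI vesicles and release their load in the ER. The route is known for its link to the unfolded protein response, which raises many of the proteins that the receptors retrieve.

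Each library held 21132311 to 22488952 reads in genes, and ERCC spike-in RNA took 0.359% to 0.386% of the reads. Of 6 markers of this mesenchymal line, VIM, SPARC, CD44, COL1A1 and FN1 stood at 46.8 FPKM or more in every library, and RUNX2 was low, at 0.607 to 1.33 FPKM. PTPRC, EPCAM and CDH1, markers of blood and epithelium, stayed at or below 1.61 FPKM, and ALB had no read. Levels are given as normalised counts, that is, reads divided by a library's size factor, and as FPKM, which also divides by gene length, where genes are compared with each other. The deposited scaling rests on the spike-in RNA. There, the median gene had a log2 fold change of -0.10 (NMS-873 over DMSO), and 0.00 when the libraries were scaled to their genes instead. Within each treatment, NMS-873 replicate 1 and DMSO replicate 3 stood farthest from the other libraries.

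A short DNA element marks several of these genes and is shown first because genes that share it did not move alike. The element is TGACGTGG, known as the unfolded protein response element (UPRE), to which the stress factors ATF6 and XBP1 can bind. RefSeq promoter windows (GRCh38.p14, 250 bases before to 50 after a gene's start) were matched for 8 of the 10 genes; KDELR2 and ARF4 were not matched. Of these 8, 4 held the element on either strand: COPA, COPB1, COPB2 and KDELR3. Of all 27305 genes with a window 0.927% held it, and of the 9985 such genes tested here 1.31% did. It is printed below in capitals, read on the gene's strand, in COPB1 and KDELR3, where it lies at almost the same distance before the start, in COPB2, and in a 30-base site of COPA that spans the start. The capitals read CCACGTCA where the element lies on the other strand.
COPB1 (chr11:14499812-14500061, minus strand): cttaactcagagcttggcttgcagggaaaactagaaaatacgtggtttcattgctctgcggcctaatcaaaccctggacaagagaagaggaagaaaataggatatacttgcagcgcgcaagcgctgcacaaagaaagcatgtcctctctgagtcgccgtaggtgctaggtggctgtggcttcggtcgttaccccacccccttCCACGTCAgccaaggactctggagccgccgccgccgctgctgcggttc
KDELR3 (chr22:38467846-38468095, plus strand): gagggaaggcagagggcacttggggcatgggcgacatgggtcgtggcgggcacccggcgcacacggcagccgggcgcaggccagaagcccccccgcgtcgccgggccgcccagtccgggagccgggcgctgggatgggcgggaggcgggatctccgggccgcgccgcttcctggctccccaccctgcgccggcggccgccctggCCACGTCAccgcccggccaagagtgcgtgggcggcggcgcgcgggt
COPB2 (chr3:139389681-139389930, minus strand): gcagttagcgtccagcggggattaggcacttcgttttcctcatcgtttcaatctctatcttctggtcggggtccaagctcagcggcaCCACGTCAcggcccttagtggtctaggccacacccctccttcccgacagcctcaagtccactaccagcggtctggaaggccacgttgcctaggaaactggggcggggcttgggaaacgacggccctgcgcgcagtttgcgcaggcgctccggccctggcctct
COPA (chr1:160343227-160343256, minus strand): gagagggtcgcTGACGTGGaggcgtccgaa

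In COPB1 the element began 48 bases before the start and in KDELR3 46 bases before it. In COPB2 it began 163 bases before the start printed here, with another copy 31 bases into the transcript, and in COPA it began 6 bases into the transcript. ARF1, the main ARF of COPI recruitment, held it 16 bases before 1 of its starts. Of 43 genes with a window in the lists of the route described below, 5 held it: ARF1, GBF1, GOLGA5, SEC23A and SEC24A. ARF1, GOLGA5 and SEC24A were called higher (log2 fold change 0.15, 0.51 and 0.36), while GBF1 and SEC23A did not pass (-0.04 and 0.03). On the spike-in scale, as the values below show, COPA and COPB1 rose, COPB2 did not pass the test and KDELR3 fell. With gene-based or TMM factors COPA and COPB1 also rose, COPB2 passed upward and KDELR3 did not pass. No member window held any of the other 4 elements searched on both strands: the ER stress element ERSE, its second form ERSE-II, the cyclic AMP element TGACGTCA and the amino acid response element TGATGNAA. These were found in 0.0916%, 0.0696%, 2.25% and 4.46% of all genes with a window. The elements can overlap, since the UPRE read on the other strand and both ER stress elements contain CCACG. A match is a string of letters and does not show binding.

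Of the 10 genes, 4 rose with NMS-873 and 1 fell, by at most 1.28-fold. COPB1, COPG1, COPA and ARF4 were the genes that rose, and KDELR3 was the gene that fell (limma on log2(normalised count + 1), adjusted p under 0.05 over all genes tested; fold changes on this scale understate those of low genes). Over all genes tested 14.9% were called higher and 33.0% lower, 47.9% together. The 10 had a median log2 fold change of 0.10, against -0.10 for all genes tested. At an unadjusted p under 0.05 the same 4 and 1 passed, and voom on the rebuilt reads, with adjustment, also called 4 and 1. When the libraries were scaled to their genes, 7 of the 10 rose and 0 fell, against 25.3% higher and 20.9% lower over all genes; with TMM factors, another scaling to the genes, it was also 7 and 0, against 26.3% and 19.8%. With these 2 scalings the counts at an unadjusted p under 0.05 were 7 and 0 as well. With equal totals 5 rose and 2 fell, against 16.6% and 35.7% over all genes. After quantile normalisation 6 rose and 3 fell, against 20.7% and 27.6%. Without the variance trend 4 rose and 0 fell, against 12.1% and 24.9%. The rise of COPA, COPB1, COPG1 and ARF4 passed under all 18 other settings tried. The fall of KDELR3 did not pass with gene-based or TMM factors, without the variance trend, without DMSO replicate 3, or without that library and NMS-873 replicate 1 together.

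**Figure D1:**
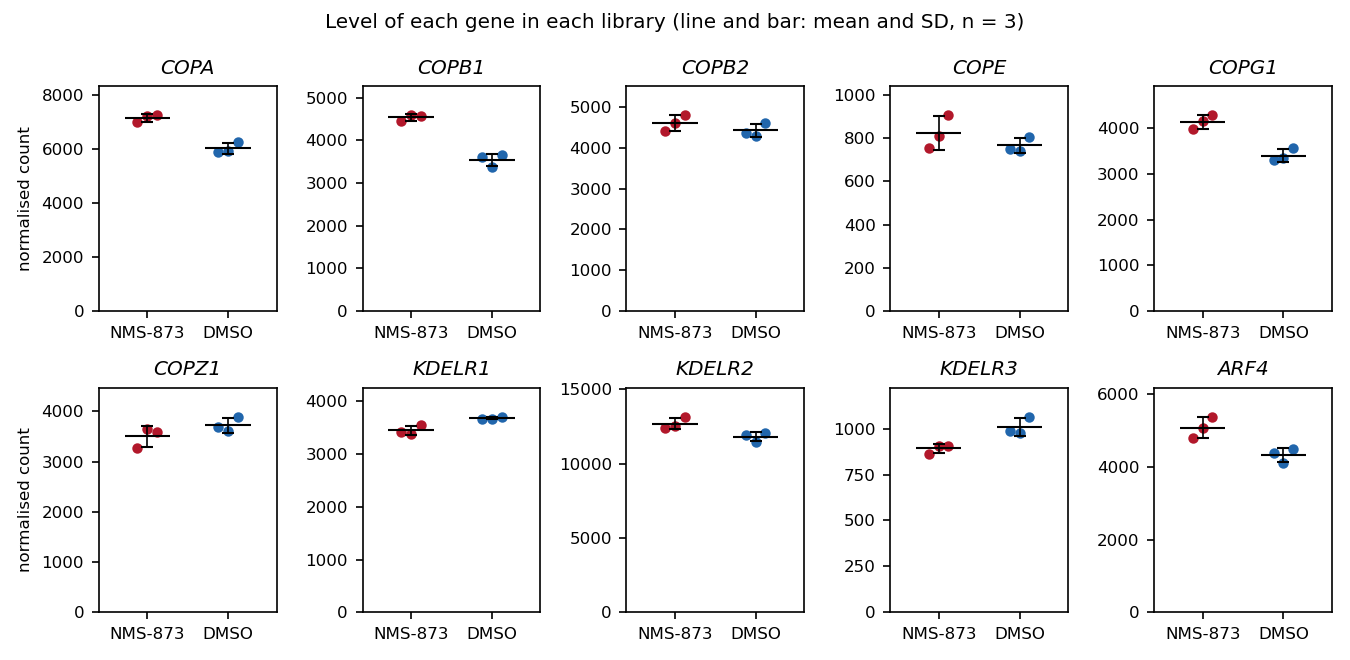
Normalised count (y axis, from 0) of each of the 10 genes in the 3 NMS-873 libraries and the 3 DMSO libraries, with mean and SD. COPA, COPB1, COPG1, KDELR2 and ARF4 have all NMS-873 libraries above all DMSO libraries, and KDELR1 and KDELR3 have them all below.

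Of the 6 coat members 3 rose and the other 3 did not pass. COPB1 (chr11:14464986-14521573 in hg19, as are the positions below) encodes beta-COP, part of the adaptor-like subcomplex of the coat. It had 4448, 4586 and 4573 normalised counts in the NMS-873 libraries, against 3603, 3386 and 3647 in the DMSO libraries. Every NMS-873 library was above every DMSO library, and COPB1 was 1.28-fold higher with NMS-873 (95% interval 1.19 to 1.38; log2 fold change 0.36, SE 0.0537, adjusted p = 2.08e-09). Over all genes tested 53.6% had no overlap between treatments, 16.4% with NMS-873 above and 37.2% with NMS-873 below.

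COPG1 (chr3:128968449-128996614), the main form of gamma-COP, had 3987, 4148 and 4283 normalised counts with NMS-873 and 3299, 3339 and 3570.4 with DMSO. The libraries did not overlap, and the fold was 1.22 (95% interval 1.13 to 1.31; log2 fold change 0.28, adjusted p = 2.02e-06). COPA (chr1:160259063-160313190) encodes alpha-COP, which with beta-prime-COP forms the outer cage and binds dilysine signals of ER membrane proteins. It had 6989, 7228 and 7251 normalised counts with NMS-873, against 5876, 5915 and 6274 with DMSO, again without overlap. Its fold was 1.19 (95% interval 1.10 to 1.28; log2 fold change 0.25, adjusted p = 3.95e-05).

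COPB2 (chr3:139074442-139108574), which encodes beta-prime-COP and is the partner of COPA in the cage, had 4427, 4612 and 4801 normalised counts with NMS-873 and 4376, 4305 and 4615 with DMSO. The libraries overlapped, and the interval of the fold reached from 0.967 to 1.12 (log2 fold change 0.06, adjusted p = 0.388). COPE (chr19:19010323-19030206), which encodes the cage subunit epsilon-COP, was the lowest of the 6 coat members per length. It stood at 754, 812 and 906 normalised counts with NMS-873 and 752, 743 and 808 with DMSO. Here NMS-873 replicate 1 lay among the DMSO libraries (log2 fold change 0.10, interval of the fold 0.982 to 1.17, adjusted p = 0.191), and without that library COPE passed, at 0.16 (adjusted p = 0.0324). Both COPB2 and COPE passed upward with gene-based factors, at 0.16 and 0.20 on the log2 scale.

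COPZ1 (chr12:54694986-54745633), the main form of the small subunit zeta-COP, was the 1 of the 6 coat members with a negative difference on the spike-in scale. It had 3266, 3654 and 3589 normalised counts with NMS-873, against 3684, 3604 and 3893 with DMSO, and the libraries overlapped. Its log2 fold change was -0.09 (interval of the fold 0.873 to 1.01, adjusted p = 0.159), beside -0.10 for the median gene, and it was 0.014 with gene-based factors. After quantile normalisation COPZ1 was called lower, at -0.10 (adjusted p = 0.0213).

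Of the 3 coat genes outside the members, ARCN1 (delta-COP) rose slightly and the alternative forms COPG2 and COPZ2 did not pass. ARCN1 had 3736, 4044 and 4104 normalised counts with NMS-873 and 3517, 3550.4 and 3779 with DMSO (log2 fold change 0.13, adjusted p = 0.0347). NMS-873 replicate 1 lay below DMSO replicate 3, and ARCN1 missed the threshold in 7 of the 18 other settings, among them without DMSO replicate 1 or 2 and without NMS-873 replicate 2 or 3 (adjusted p of 0.176, 0.105, 0.152 and 0.150). COPG2 and COPZ2 were at -0.12 each (adjusted p = 0.246 and 0.282). Their counts were lower and their SEs larger, at 0.0843 and 0.0928 against 0.0539 for ARCN1, so a difference of that size was harder to call.

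**Figure D2:**
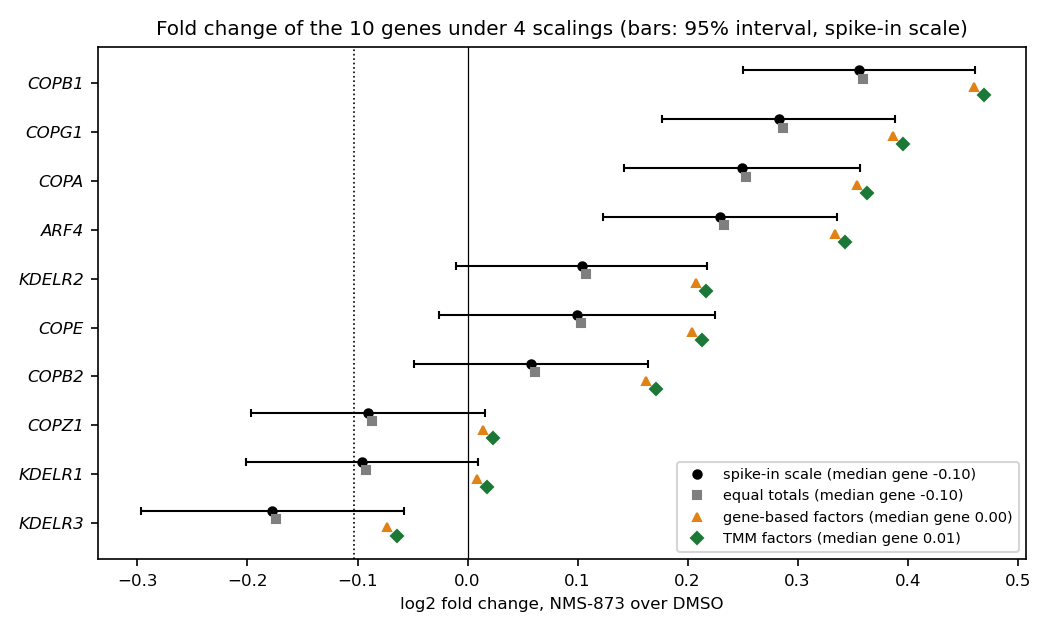
Log2 fold change (x axis, NMS-873 over DMSO) of the 10 genes on the spike-in scale, with 95% intervals, and under equal totals, gene-based and TMM factors; the dotted line is the median gene on the spike-in scale. COPB1, COPG1, COPA and ARF4 stay above 0.2 under each scaling drawn, while COPZ1 and KDELR1 change sign with gene-based and TMM factors.

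Shares within a library do not depend on how libraries are scaled to each other. Those of a family add up to a whole, so larger shares for some genes mean smaller ones for others. They are not separate observations, here and in the families below. Of single genes tested 53.6% had no overlap between treatments, and no such rate was taken for shares. Of the summed FPKM of the 6 member subunits and ARCN1, COPZ1 made up 15.4%, 16.3% and 15.8% in the NMS-873 libraries, against 19.0%, 18.8% and 18.9% in the DMSO libraries. That was a difference of -3.05 percentage points with no overlap. The share of COPB1 was 15.6% ± 0.345 with NMS-873 and 13.7% ± 0.393 with DMSO (SD, n = 3 each, here and below). COPG1 made up 16.5% ± 0.164 with NMS-873 and 15.2% ± 0.190 with DMSO, and COPA 20.3% ± 0.361 with NMS-873 and 19.1% ± 0.163 with DMSO. These 3 shares were larger in every NMS-873 library. COPB2 and ARCN1 took smaller shares with NMS-873, at -0.76 and -0.38 percentage points without overlap, and COPE overlapped. COPG1 made up 87.6% ± 0.866 of COPG1 and COPG2 together with NMS-873, against 84.3% ± 0.412 with DMSO, and the libraries did not overlap. COPZ1 made up 88.3% ± 0.821 of the zeta forms with NMS-873 and 88.0% ± 1.51 with DMSO, with overlap. With 3 libraries against 3 the exact two-sided permutation test cannot go below p = 0.1. Of 17 shares compared, those without overlap had that value (adjusted p = 0.121), and none could pass.

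Of the 3 KDEL receptors 1 fell and the other 2 did not pass. KDELR2 (chr7:6485584-6523873), the most abundant of the 10 genes per length, had 12415.5, 12511 and 13137 normalised counts with NMS-873, against 11887, 11468 and 12068 with DMSO. The libraries did not overlap, but the difference did not pass (log2 fold change 0.10, 95% interval -0.01 to 0.22, adjusted p = 0.129). In the authors' deposited table KDELR2 has the same log2 fold change of 0.10 and an adjusted p of 0.0409, and it also passed upward with gene-based factors, TMM factors, equal totals and quantile normalisation. It is the member whose call differs between that table and the test used here.

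KDELR1 (chr19:48885827-48894810) had 3417, 3377 and 3552.5 normalised counts with NMS-873 and 3674, 3674 and 3706 with DMSO. All NMS-873 libraries were below all DMSO libraries, and the difference did not pass (log2 fold change -0.10, interval of the fold 0.870 to 1.01, adjusted p = 0.130). KDELR1 was called lower with equal totals and after quantile normalisation (adjusted p = 0.0291 and 0.0199), and it was at 0.0084 with gene-based factors (adjusted p = 0.865). KDELR3, the receptor form with the lowest level, had 862, 907 and 907 normalised counts with NMS-873, against 986, 978 and 1064 with DMSO. It fell by 0.18 on the log2 scale (interval of the fold 0.814 to 0.961, adjusted p = 0.0104), again without overlap. That is 0.07 below the median gene: with gene-based factors KDELR3 was at -0.07 (adjusted p = 0.180), and without DMSO replicate 3 at -0.14 (adjusted p = 0.0828).

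KDELR3 lies at chr22:38864067-38879452 on the plus strand. Its last 8 bases are shared with DDX17, an RNA helicase gene at chr22:38879445-38903665 on the minus strand with a mean of 6830.1 normalised counts. The log2 fold change of DDX17 was -0.18, beside -0.18 for KDELR3, and DDX17 was also called lower (adjusted p = 0.00361). The labels and processing notes do not state whether counting used strand, so reads of KDELR3 and DDX17 cannot be told apart within those 8 bases. Of the 10 genes, 6 overlap a gene with a mean of at least 10 normalised counts. On the same strand, COPB1 shares 6245 bases with PSMA1 (log2 fold change -0.02) and KDELR2 shares 38238 with DAGLB (0.08), introns included. On the other strand, COPA shares 129 bases with NCSTN (0.09), COPB2 1624 with MRPS22 (-0.05) and ARF4 506 with a gene of 18.6 normalised counts. None of these 5 neighbours passed the test. These neighbours were named for their position after the values were seen, and their part in the results was not tested.

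Within the receptor family the shares were tight. KDELR2 made up 61.3%, 61.4% and 61.6% of receptor FPKM in the NMS-873 libraries and 58.2%, 57.3% and 57.9% in the DMSO libraries. KDELR1 made up 29.6% ± 0.267 with NMS-873 and 32.0% ± 0.524 with DMSO, and KDELR3 8.94% ± 0.236 with NMS-873 and 10.2% ± 0.303 with DMSO (SD, n = 3 each). None of the 3 overlapped between treatments, and a share within a library does not depend on the scaling between libraries (exact permutation p = 0.1 each, the smallest possible). The 3 shares add up to a whole, so they do not count as 3 separate results.

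**Figure D3:**
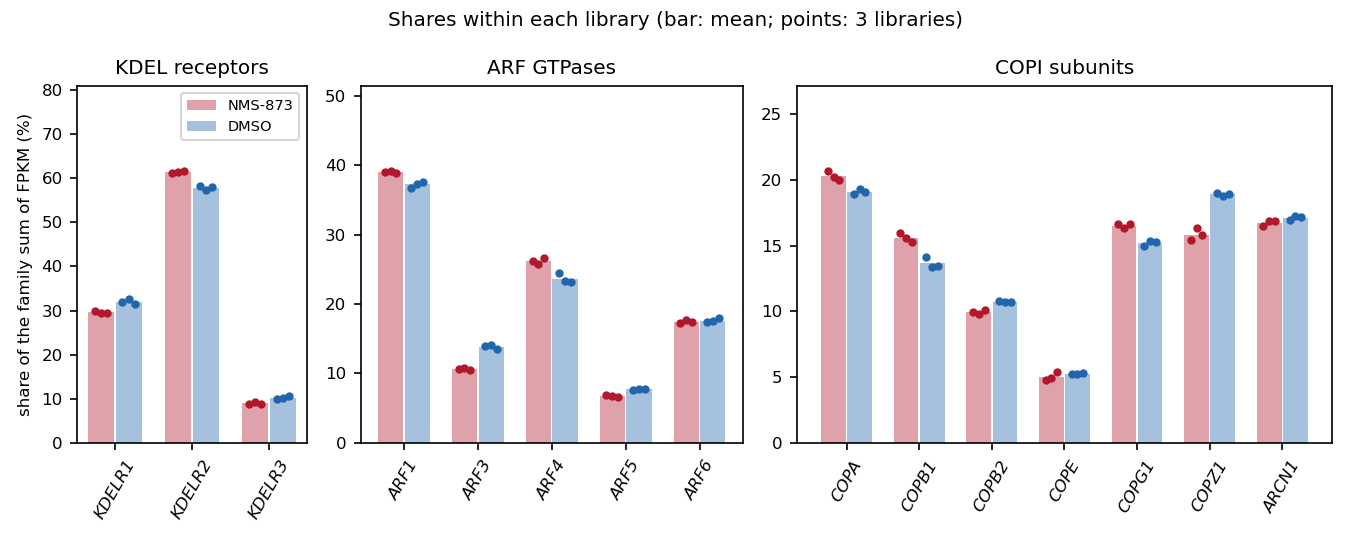
Share of each gene in the summed FPKM of its family (y axis, %) in the 3 NMS-873 and 3 DMSO libraries; bars are means and points are libraries. KDELR2, ARF1, ARF4, COPA, COPB1 and COPG1 took a larger share with NMS-873, and KDELR1, KDELR3, ARF3, ARF5, COPB2, COPZ1 and ARCN1 a smaller one, without overlap; ARF6 and COPE overlapped.

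ARF4 (chr3:57557090-57583947) encodes a GTPase that works beside ARF1 in COPI recruitment and is known as a target of the transcription factor CREB3 when the Golgi is disrupted. It had 4812, 5068 and 5384 normalised counts with NMS-873, against 4391, 4123 and 4499 with DMSO. The libraries did not overlap, and ARF4 was 1.17-fold higher (95% interval 1.09 to 1.26; log2 fold change 0.23, SE 0.0541, adjusted p = 1.41e-04). The CREB3 transcript was at -0.13, beside -0.10 for the median gene, and did not pass (adjusted p = 0.0632, named after its value was seen). Its activity was not measured, and its part in the rise of ARF4 was not tested.

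Of the other 4 ARF genes 1 rose and 1 fell; gene-based or TMM factors gave 2 and 1. ARF1 had 9047, 9717 and 9939 normalised counts with NMS-873 and 8360, 8303 and 9222 with DMSO, with overlap. Its log2 fold change was 0.15 (adjusted p = 0.0208), and it missed the threshold in 7 of the 18 other settings, among them without DMSO replicate 1 or 2 and without NMS-873 replicate 2 or 3 (adjusted p of 0.144, 0.114, 0.0998 and 0.116). ARF3, an ARF of the trans-Golgi, fell by 0.30 on the log2 scale, to 3752, 4056 and 4113 normalised counts with NMS-873, against 4824, 4778 and 5033 with DMSO (adjusted p = 6.49e-07), and it fell under every setting tried. ARF5, the closest relative of ARF4, was at -0.12 (adjusted p = 0.0882), and ARF6, which acts at the plasma membrane, at 0.07 (adjusted p = 0.327). ARF4 made up 26.2% ± 0.409 of the summed FPKM of these 5 GTPases with NMS-873, against 23.7% ± 0.643 with DMSO. ARF1 made up 39.0% ± 0.131 with NMS-873 and 37.2% ± 0.441 with DMSO. ARF3 made up 10.6% ± 0.0834 with NMS-873 and 13.8% ± 0.308 with DMSO, and ARF5 6.70% ± 0.165 with NMS-873 and 7.71% ± 0.127 with DMSO. These 4 shares were without overlap, while that of ARF6 overlapped. Without division by length the share of ARF1 differed by 2.84 percentage points and that of ARF4 by 2.69.

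Per length, the order of the 10 genes changed little. KDELR2 stood at 146 ± 4.50 FPKM with NMS-873 and 135 ± 3.53 FPKM with DMSO (SD, n = 3 each, here and below). ARF4 stood at 89.7 ± 5.05 FPKM with NMS-873 and 76.5 ± 3.42 FPKM with DMSO, and KDELR1 at 70.1 ± 1.87 FPKM with NMS-873 and 74.9 ± 0.378 FPKM with DMSO. These 3 were the highest with either treatment. COPA stood at 52.5 ± 1.06 FPKM with NMS-873 and 44.2 ± 1.61 FPKM with DMSO, COPG1 at 42.8 ± 1.53 FPKM with NMS-873 and 35.2 ± 1.52 FPKM with DMSO, COPZ1 at 41.1 ± 2.44 FPKM with NMS-873 and 43.7 ± 1.75 FPKM with DMSO, and COPB1 at 40.5 ± 0.680 FPKM with NMS-873 and 31.6 ± 1.25 FPKM with DMSO. These coat genes formed the middle of the order. COPB2 stood at 25.8 ± 1.05 FPKM with NMS-873 and 24.8 ± 0.909 FPKM with DMSO, KDELR3 at 21.2 ± 0.617 FPKM with NMS-873 and 23.9 ± 1.12 FPKM with DMSO, and COPE at 13.1 ± 1.22 FPKM with NMS-873 and 12.2 ± 0.560 FPKM with DMSO. With NMS-873 the libraries of COPZ1 overlapped those of COPG1 and those of COPB1, and every COPG1 library was above every COPB1 library. With DMSO those of ARF4 and KDELR1, of COPA and COPZ1, and of COPB2 and KDELR3 overlapped, while COPZ1 stood above COPG1 and COPB1 in every library.

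The genes outside the 10 whose 6 centred log2 values lay nearest those of each receptor and of ARF4 were found among 7148 genes with a mean of at least 500 normalised counts. They were AUP1 and HP1BP3 for KDELR1 (Euclidean distance 0.0245 and 0.0258), KHDRBS3 and LHFPL2 for KDELR2 (0.0282 and 0.0299), DHX9 and TUBA1C for KDELR3 (0.0171 and 0.0197), and RAPH1 and BOD1L1 for ARF4 (0.0383 and 0.0398). Each distance is over 6 libraries that fall into 2 treatments.

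Around the members, more genes of the route rose than fell. Of 50 genes in 7 lists of other coat genes, ARF regulators, cargo receptors, tethers, Golgi matrix and the COPII coat, 22 rose and 4 fell. Over all genes tested 14.9% were called higher and 33.0% lower. The median of the 50 on the log2 scale was 0.07, against -0.10 for all genes tested. With gene-based or TMM factors the count was 34 and 2. Over all genes these factors gave 25.3% and 26.3% higher, and 20.9% and 19.8% lower. The list counts below stand beside these same shares.

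Among the ARF exchange factors and GTPase-activating proteins 2 of 6 rose and 1 fell, and with gene-based or TMM factors 4 rose and 0 fell. ARFGAP3, which with ARFGAP2 acts on coat-bound ARF, rose 1.30-fold (log2 fold change 0.38, adjusted p = 4.71e-09). ARFGAP2 was at 0.14 (adjusted p = 0.0254), lost without DMSO replicate 1 or 2 or NMS-873 replicate 2 (adjusted p = 0.101, 0.120 and 0.153). ARFGEF1, a trans-Golgi exchange factor, was at -0.13 (adjusted p = 0.0369), and it missed the threshold in 10 of the 18 other settings, among them without NMS-873 replicate 1 or 2 and without DMSO replicate 1 or 3.

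Of 10 genes for p24 proteins and SURF4, membrane proteins that cycle between ER and Golgi and carry cargo, 5 rose and 0 fell. Without adjustment limma had 5 higher and 1 lower at 0.05, and voom, adjusted, called 5 and 0. TMED7 rose 2.12-fold, with 2868, 2986 and 3571 normalised counts with NMS-873, against 1607, 1428 and 1390.3 with DMSO (adjusted p = 1.46e-49). TMED2 and TMED10, p24 proteins that bind COPI, rose 1.26-fold and 1.21-fold (adjusted p = 2.41e-08 and 7.90e-06). SURF4, a receptor for secreted cargo, rose 1.27-fold (adjusted p = 1.47e-08).

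In the tether and SNARE list, which lets retrograde vesicles dock and fuse at the ER, 3 of 8 rose and 0 fell, and limma at an unadjusted p under 0.05 and voom both gave 3 and 0. With gene-based or TMM factors 6 of 8 rose and 0 fell. The SNARE BNIP1 rose 1.29-fold (adjusted p = 6.17e-06). The SNARE SEC22B was at 0.17 on the log2 scale (adjusted p = 0.00518), and at 0.12 without DMSO replicate 2 and 0.14 without NMS-873 replicate 3, where it did not pass (adjusted p = 0.0864 and 0.0579).

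The Golgi list had 5 of 8 genes higher and 1 lower, with the highest median of the 7 lists at 0.36. Of the 5 that rose, GORASP2 rose 1.43-fold (adjusted p = 1.49e-17), GOLGA2 1.44-fold (adjusted p = 1.47e-16), GOLGB1 1.41-fold (adjusted p = 1.95e-14) and GOLGA5 1.43-fold (adjusted p = 5.76e-13), all of them matrix or tether proteins. The golgin GOLGA3 rose less, by 0.22 on the log2 scale (adjusted p = 7.00e-04; named after its value was seen). GORASP1, the other stacking protein, fell by 0.22 on the log2 scale (adjusted p = 0.00321; named after its value was seen). With gene-based factors 0 genes of this list fell.

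The COPII coat, which carries proteins the other way, had 5 of 11 genes higher and 1 lower, against 4 and 1 of the 10 members, and medians of 0.03 and 0.10. With gene-based or TMM factors the COPII count was 9 and 1, against 7 and 0 of the members. SEC24D rose 2.40-fold, SEC23B 1.51-fold and SEC24A 1.28-fold (adjusted p = 1.23e-62, 1.26e-20 and 3.28e-07), beside at most 1.28-fold among the 10 members. SEC31B, at 24.8 to 64.8 normalised counts, fell 1.75-fold (adjusted p = 1.62e-04). The difference between the coats was not tested.

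**Figure D4:**
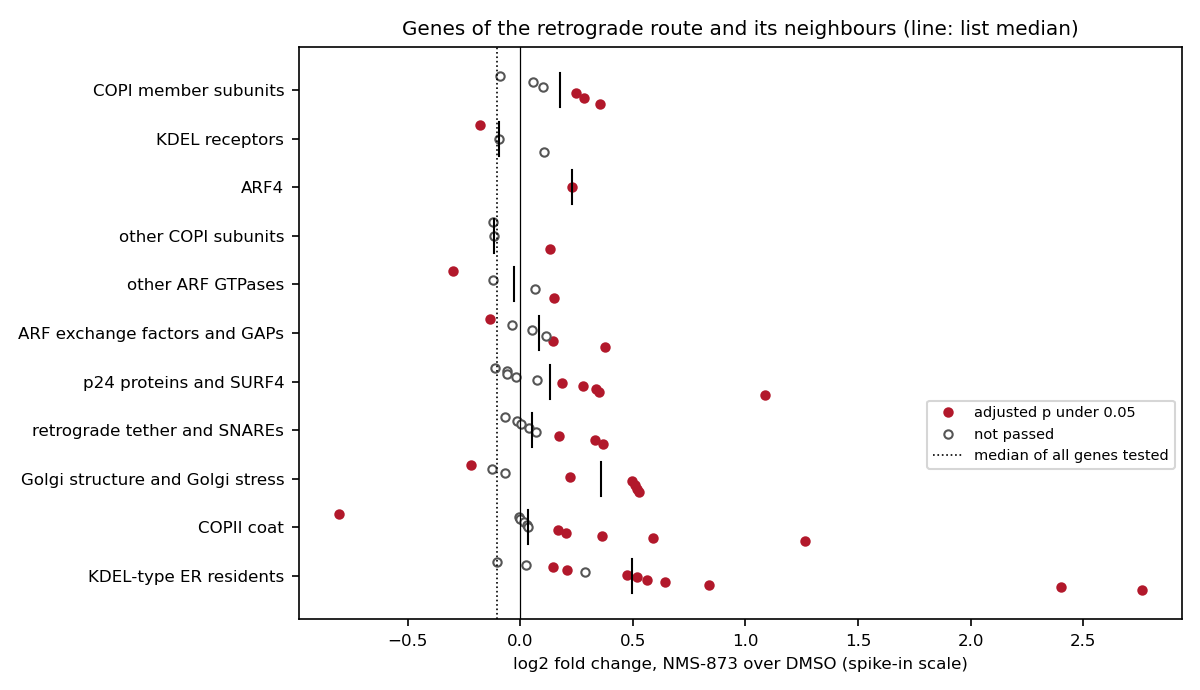
Log2 fold change (x axis, NMS-873 over DMSO, spike-in scale) of each tested gene of the members and the lists; filled points passed an adjusted p of 0.05, vertical strokes are list medians and the dotted line is the median of all genes tested. The members lie between -0.18 and 0.36, and TMED7, SEC24D, HSPA5 and SDF2L1 lie above 1.

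The proteins that KDEL receptors retrieve were set beside the receptors with a list of 12 ER residents that end in KDEL or a close variant, taken from textbook knowledge after the data were seen. Of these 12, 9 rose and 0 fell, against 14.9% called higher and 33.0% lower over all genes tested. The middle log2 fold change was 0.49, and limma at an unadjusted p under 0.05 and voom both gave 9 and 0. HSPA5 (BiP) rose 6.78-fold, SDF2L1 5.29-fold, HSP90B1 (GRP94) 1.79-fold and PDIA4 1.48-fold (adjusted p = 5.06e-97, 2.29e-114, 1.74e-27 and 4.15e-20). TXNDC5, RCN1 and RCN2 did not pass, with log2 fold changes of 0.29, 0.02 and -0.10. TXNDC5 stood at only 8.23 to 19.6 normalised counts, so a difference was hard to call there.

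Summed over the 12 genes, residents stood at 4097, 3827 and 4008 FPKM in the NMS-873 libraries, against 1519, 1460.5 and 1517 FPKM in the DMSO libraries, a 2.65-fold difference. The summed receptors stood at 232, 234 and 244 FPKM with NMS-873 and 234, 229 and 239 FPKM with DMSO, and these overlapped. These sums, and that of the coat below, are on the spike-in scale and were not taken on other scales. With gene-based factors KDELR2 passed upward, at 0.21 on the log2 scale. KDELR1 and KDELR3 did not pass there, at 0.0084 and -0.07. The ratio below is taken within a library and does not depend on the scaling. The ratio of resident to receptor transcripts was 16.8 ± 0.720 with NMS-873 and 6.40 ± 0.0723 with DMSO (SD, n = 3 each; exact permutation p = 0.1, the smallest possible). Without HSPA5 it was 7.93 ± 0.186 with NMS-873 and 5.07 ± 0.0410 with DMSO. The summed coat (6 members and ARCN1) stood at 259 ± 9.71 FPKM with NMS-873 and 231 ± 8.65 with DMSO, a 1.12-fold difference.

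**Figure D5:**
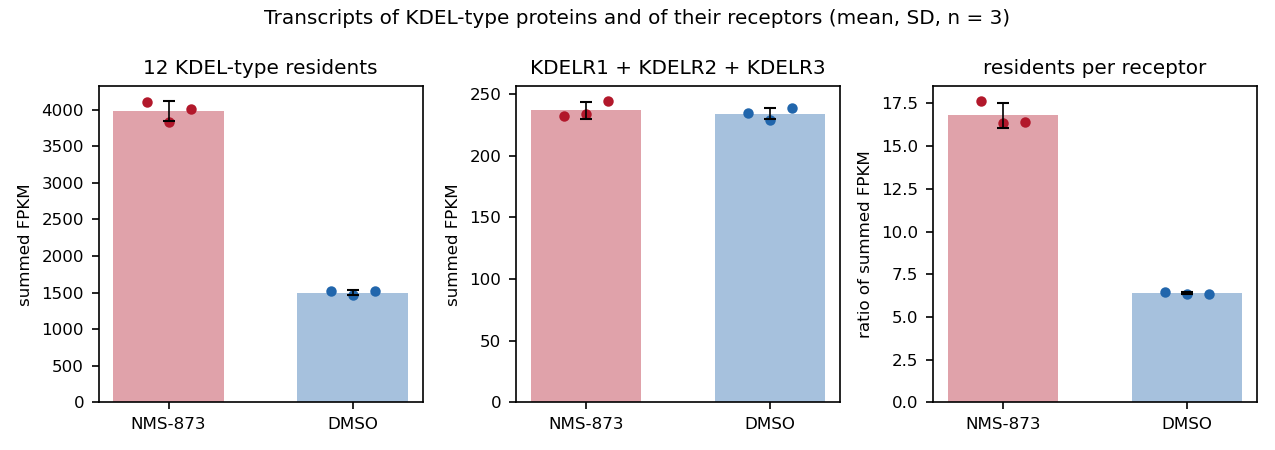
Summed FPKM of 12 KDEL-type ER residents and of the 3 KDEL receptors, and their ratio (y axes, from 0), in the NMS-873 and DMSO libraries, with mean and SD. Residents and the ratio are higher in every NMS-873 library, and the receptor sums overlap on the spike-in scale drawn here.

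The promoter element can also be set against all genes with a window. Of 131 tested genes with TGACGTGG in a window, 19.1% were called higher and 25.2% lower, with a median log2 fold change of -0.01. Of all 9985 tested genes with a window 16.5% were called higher and 32.8% lower, with a median of -0.09. Of 381 genes with the cyclic AMP element 22.3% were called higher and 27.6% lower, and of 290 with the amino acid response element 26.9% and 26.2%. Of 16 tested genes with ERSE, 81.2% were called higher and 12.5% lower, with a median of 0.56, and of 14 with ERSE-II 64.3% and 21.4%. None of the 8 members with a window is among the genes with these other 4 elements.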

How the data were processed

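Per the labels' protocols, RNA of U2OS cells was made into stranded libraries of polyadenylated RNA, pooled and sequenced as single reads on 1 flow cell. The submitters' processing notes name build hg19, featureCounts 1.5.1 and DESeq2 1.16.1. The aligner and the strand setting of the counting are not given in the sources used here. The deposited sample columns hold FPKM, judged from their values. The deposited table also holds a mean normalised count per gene, a signal in units of reads, and the log2 fold change and adjusted p-value of the authors' own comparison.

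Normalised counts were rebuilt by multiplying FPKM by the ratio of a gene's deposited mean normalised count to its mean FPKM. Times the implied size factors, 100% of values came within 0.001 of a whole number, and the factors match medians of ratios taken on the 92 spike-in rows. Genes with a mean of at least 10 were put through limma 3.58.1 (R 4.3.3) as log2(normalised count + 1), with a term for treatment alone and an intensity trend (prior degrees of freedom 250.84), two-sided, with Benjamini-Hochberg adjustment over 14889 genes. The spread of a gene was thus taken mostly from genes of like level. In data simulated over 14889 genes, 54% of 50 genes changed 1.25-fold and 72% of 50 changed 1.5-fold were recovered, and 8 of 14689 unchanged genes were called. The simulation used 1 dispersion of 0.00136 for all genes and known size factors. It also had far fewer changed genes than the 47.9% called in the data, which makes the adjusted threshold stricter. These rates therefore do not carry over to the data, and doubt about the scaling is not part of them.

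Named genes are the 10 members, all of the other COPI and ARF genes, up to 4 per other list with the lowest adjusted p, and the 2 nearest genes of each receptor and ARF4; any other gene was named once values were known. One gene that this rule selects is not reported here. The members, lists and tests were chosen with earlier results of these data known. A list of KDEL-type proteins from protein sequence was planned and replaced by one from textbook knowledge. One marker gene, PECAM1, was not matched and not analysed here. Replicates differed by more than sampling noise, with chi-square per degree of freedom between 1.53 and 7.81. Without molecular identifiers, counting error understates the true error. Alternatives changed the scaling, pseudocount, unit, filter, variance prior, test, replicate block and libraries.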

Additional observations from a re-analysis of the deposited data

How the results depend on the processing

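COPA, COPB1, COPG1, ARF4 and ARF3 kept direction and call under all 18 alternatives. Over all genes tested, 2217 were higher and 4910 lower; gene-based factors gave 3760 higher and 3108 lower, and TMM factors 3920 higher and 2952 lower. Of the 10 members 4 were higher and 1 lower; with gene-based and with TMM factors 7 were higher and 0 lower, without NMS-873 replicate 1 and DMSO replicate 3 (chosen after the data were seen) 7 were higher and 0 lower. Lower members numbered 2 with equal totals, 3 after quantile normalisation and 0 without the variance trend. Leaving out 1 library gave 1875 to 2401 genes higher and 3988 to 4973 lower, 4 to 5 members higher and 0 to 1 lower, with 0 lower without DMSO replicate 3. Of the 50 genes of the route 22 were higher and 4 lower; gene-based and TMM factors gave 34 higher and 2 lower each, and equal totals 7 lower, and leaving out 1 library 18 to 23 higher and 3 to 4 lower. On the log2 scale COPZ1, KDELR1, AUP1 and HP1BP3 turned to 0.014, 0.0084, 0.024 and 0.018 with gene-based factors and to 0.023, 0.018, 0.033 and 0.027 with TMM factors. The difference in the share of COPZ1 among zeta forms, 0.26 percentage points, ranged from -0.57 without DMSO replicate 1 to 0.89 without DMSO replicate 3 and was -0.21 without NMS-873 replicate 3, and that of ARF6 turned to 0.082 without division by length. In the p24 list 1 gene was lower with equal totals, quantile normalisation or the replicate block. The causes were not tested beyond the construction of each setting. Deviations of same-numbered libraries from their treatment means had correlations of 0.0394, -0.0253 and 0.0425. Such values cannot show whether same-numbered cultures were handled together, so pairing remains unknown and the main fit left it out. With the number as a replicate block 2352 genes were higher and 5255 lower, 4 members were higher and 1 lower, and 23 and 6 genes of the route. Of the tests planned on the rebuilt reads voom was run, and the count models planned beside it were not run. Low counts went with wide SEs for SEC31B and TXNDC5 (0.192 and 0.309 on the log2 scale). COPG2 and COPZ2 were also less precise (0.0843 and 0.0928) than ARCN1 (0.0539), which bears on their calls. At 3 libraries a treatment no share could pass its exact test.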
